A study of Homo sapiens with 7 samples.

Results

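The TNF receptor superfamily was followed through 10 transcripts in libraries from cells given PTH (parathyroid hormone) or PBS (phosphate-buffered saline, the control). The members were chosen by gene symbol, namely Fas, Tnfrsf10b, Tnfrsf1a, Tnfrsf21, Ngfr, Tnfrsf1b, Tnfrsf11b, Tnfrsf12a, Cd40 and Ltbr. All 10 were found, once each, among the 22062 rows of the deposited tables. The study comprised 4 PTH libraries and 3 PBS libraries, and the cells of both groups are labelled LX2, a widely used line of immortalized human hepatic stellate cells. Dose and exposure time are not labelled, nor is it said that any library had a culture of its own, so a p-value here reflects how much these libraries vary and that variation may be technical. Every row carries a rat Ensembl identifier, while the submitters' notes name a mouse build and the design text speaks of mice, so genes are written with their rat symbols, libraries carry their labels, and no coordinates or sequences are given.

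Receptors of this superfamily are membrane proteins with cysteine-rich ectodomains that bind trimeric ligands of the TNF family, apart from Ngfr, whose main ligands are neurotrophins. A subset carries a cytoplasmic death domain, through which adaptors such as FADD and TRADD can be recruited and caspase-8 or NF-kB signalling engaged. The others recruit TRAF proteins directly, and Tnfrsf11b is a secreted decoy. In the liver, activated stellate cells are known to express several of these receptors, and death receptor signalling is a route by which such cells can be removed when fibrosis resolves. The members were split accordingly into 5 death-domain receptors (Fas, Tnfrsf10b, Tnfrsf1a, Tnfrsf21 and Ngfr) and 5 other receptors (Tnfrsf1b, Tnfrsf11b, Tnfrsf12a, Cd40 and Ltbr).

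Summed FPKM (fragments counted per kilobase of a transcript, relative to all fragments mapped in that library) ranged from 472621 to 509859 in the PTH libraries and from 519845 to 532909 in the PBS libraries. Transcripts of the mitochondrial genome took 0.867 to 3.61% of that sum in the PTH libraries and 5.78 to 5.90% in the PBS libraries. Read depth is unknown, because the files hold no counts. Of the stellate and mesenchymal markers examined, Vim and Col1a1 averaged 928 and 444 FPKM in the PTH libraries, against 702 and 291 FPKM in the PBS libraries, while Lrat, Reln and Rgs5 were listed at 0 throughout and Acta2 averaged 1.59 FPKM with PTH and 0.919 FPKM with PBS. Hand2, the tested marker with the largest difference, lay the other way, at 0.529 FPKM with PTH and 1.70 FPKM with PBS, and did not pass (log2 fold change of -0.90 ± 0.34 (SE), limma adjusted p of 0.106). Among leukocyte markers, the pan-leukocyte gene Ptprc and the lymphocyte genes Cd3e, Ms4a1 and Cd79a were listed at 0 in every library, and the sum of the 9 markers matched lay between 13.1 and 18.8 FPKM with PTH and between 14.7 and 20.9 FPKM with PBS, nearly all of it Cd14. Of the stellate and mesenchymal list, 6 of 10 genes were tested and Vim alone was called, higher with PTH. Over all tested genes 3.45% were called higher and 7.96% lower. Vim had a log2 fold change of 0.40 ± 0.07 (SE) and a limma adjusted p of 0.0259. The list's sum lay between 1227 and 1634 FPKM with PTH and between 962 and 1039 FPKM with PBS. Hepatocyte markers summed to at most 0.866 FPKM with PTH and 0.438 FPKM with PBS, with Alb, Ttr, Serpina1, Cyp2e1 and Hnf4a at 0, and endothelial markers to at most 0.432 and 0.873 FPKM with PTH and with PBS. Cholangiocyte markers summed to between 3.59 and 7.07 FPKM with PTH and between 6.62 and 8.70 FPKM with PBS, nearly all of it Krt19, and Sox9 was at 0. The part of these markers and of the mitochondrial share in the receptors' values was not tested beyond the rescaling given with them.

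Fas, Tnfrsf10b and Tnfrsf12a were lower in the PTH libraries, and no member was higher. Fas averaged 3.01 ± 0.395 FPKM with PTH (SD, n = 4) and 6.13 ± 0.587 FPKM with PBS (SD, n = 3). Tnfrsf10b averaged 12.8 ± 2.07 FPKM with PTH and 18.2 ± 1.04 FPKM with PBS. Tnfrsf12a averaged 72.2 ± 5.27 FPKM with PTH and 98.2 ± 2.90 FPKM with PBS. The other 6 receptors tested did not pass, and Cd40 was listed at 0 in all 7 libraries.

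The test was limma's moderated test on log2(FPKM + 1), two-sided, with Benjamini-Hochberg adjustment over the 10667 genes that averaged 1 FPKM or more across the 7 libraries, and a gene was called at an adjusted p under 0.05. Of the 10 members 9 reached that mean and were tested. Of these 9, 3 were called lower, against a background of 7.96% of all tested genes called lower, and none was called higher, against a background of 3.45%, with 11.4% of genes called in either direction. An unadjusted p under 0.05 was reached by 4 members, all lower, against 21.7% of all tested genes. All PTH values lay below all PBS values for the 3 members called, against 20.8% of all tested genes, and above them for none, against 12.7%. The log2 fold change was below 0 for 9 of 9 members, against 55.4% of all tested genes. That of Ltbr, at -0.0037, changed sign under other scalings, and its mean FPKM was slightly higher with PTH (73.12) than with PBS (73.03). The members' median log2 fold change was -0.35, against -0.04 over all tested genes. The background split of 368 higher and 849 lower calls moved when libraries were scaled in other ways, to 663 higher and 573 lower after quantile normalization, 586 and 558 after median centring, and 590 and 569 after rescaling the libraries without mitochondrially encoded genes, and to 469 and 525 after a GC correction. The scalings other than the GC correction moved the median of all genes by at most 0.0711 on the log2 scale. Each value describes a whole library and not single cells, so fewer cells with a transcript and less of it per cell cannot be told apart.

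**Figure D1:**
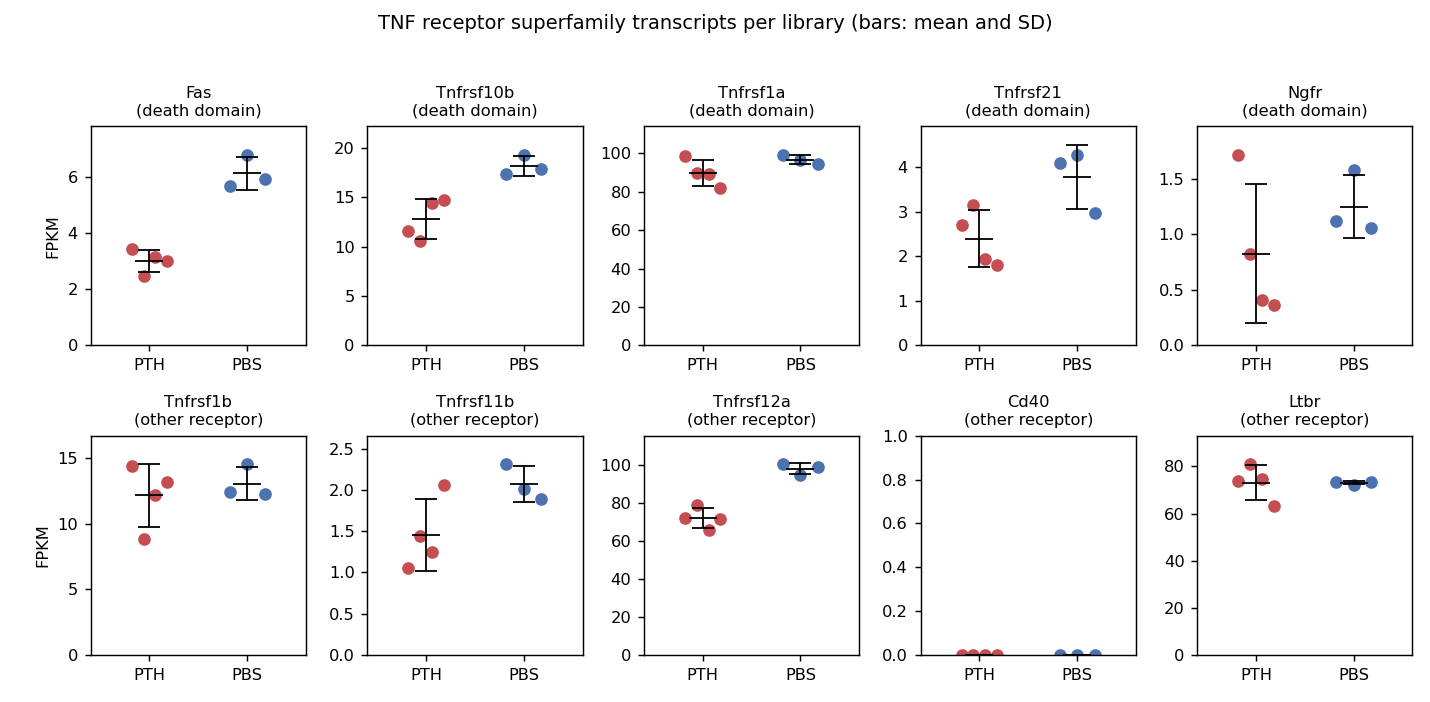
FPKM of the 10 receptors in each library, with PTH libraries (n = 4) left of PBS libraries (n = 3); points are libraries and bars give the mean and SD, on linear axes from 0 that differ between panels. The PTH and PBS points do not overlap for Fas, Tnfrsf10b and Tnfrsf12a, and Cd40 sits at 0.

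Fas (ENSRNOG00000019142), the receptor of Fas ligand and the founding example of a receptor that recruits FADD and caspase-8, had 3.42, 2.48, 3.13 and 2.99 FPKM in the PTH libraries, against 5.67, 6.79 and 5.93 FPKM in the PBS libraries. The highest PTH library stayed below the lowest PBS library. Its mean was 2.04-fold lower with PTH, at a log2 fold change of -0.83 ± 0.14 (SE) and a limma adjusted p of 0.0192. The exact permutation test over the 35 assignments of libraries gave a two-sided p of 0.0571, the smallest it can give. Only 2.57% of all tested genes had a lower log2 fold change. Leaving out any PBS library, or PTH library 3, ended the call, at adjusted p of 0.0691 to 0.113, while the log2 fold change stayed between -0.88 and -0.77 whichever library was left out. In the same fits the calls over all genes numbered 28 to 121, against 1217 with all libraries.

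Tnfrsf10b (ENSRNOG00000038483), a receptor for the death ligand TRAIL, had 11.6, 10.5, 14.4 and 14.7 FPKM with PTH and 17.4, 19.4 and 17.9 FPKM with PBS. The groups did not overlap, although PTH libraries 3 and 4 lay nearer to the PBS values than PTH libraries 1 and 2 did. The mean was 29.5% lower with PTH, at a log2 fold change of -0.48 ± 0.13 (SE) and a limma adjusted p of 0.0471, close to the threshold. That call ended under most other settings: the adjusted p was 0.0779 after quantile normalization, 0.0787 after median centring, 0.0766 after rescaling without mitochondrially encoded genes, 0.0630 without a filter on low values and 0.0612 without a variance trend. Leaving out a library ended it too, at adjusted p of 0.0610 to 0.162, except in the case of PTH library 2 (0.0370). The exact permutation p was 0.0571.

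The other 3 death-domain receptors did not pass. Tnfrsf1a, the main receptor for TNF and a partner of TRADD, had 98.5, 89.6, 89.2 and 81.8 FPKM with PTH and 99.4, 96.8 and 94.3 FPKM with PBS. PTH library 1 lay within the PBS range and the other PTH libraries below it, and the log2 fold change was -0.11 ± 0.07 (SE) with a limma adjusted p of 0.313. Tnfrsf21, known as death receptor 6 and studied mostly in neurons and lymphocytes, had 2.69, 3.15, 1.93 and 1.79 FPKM with PTH and 4.10, 4.28 and 2.97 FPKM with PBS. Only PTH library 2 overlapped the PBS values, and the log2 fold change of -0.50 ± 0.19 (SE) had an adjusted p of 0.113 in limma and an unadjusted p of 0.0310. Ngfr, the low-affinity neurotrophin receptor that is also described on hepatic stellate cells, had 1.72, 0.819, 0.403 and 0.365 FPKM with PTH and 1.11, 1.58 and 1.05 FPKM with PBS. PTH library 1 was the highest and PTH library 4 the lowest of all 7 libraries, and the log2 fold change of -0.35 ± 0.28 (SE) carried a wide error (limma adjusted p of 0.399). The mean of Ngfr over the libraries was 1.01 FPKM, just above the level needed for testing.

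Of the other receptors, Tnfrsf12a (ENSRNOG00000003546), which binds TWEAK and is induced in many tissues after injury, had 72.4, 78.8, 65.9 and 71.7 FPKM with PTH and 100.4, 94.9 and 99.2 FPKM with PBS. The groups were separated by a gap wider than the range of either. The mean was 26.4% lower with PTH, at a log2 fold change of -0.44 ± 0.07 (SE) and a limma adjusted p of 0.0202, and the exact permutation p was 0.0571. The call held after quantile normalization, median centring and rescaling without mitochondrially encoded genes, with adjusted p between 0.0238 and 0.0259. Leaving out any PBS library, or PTH library 3, ended it as for Fas, at adjusted p of 0.0691 to 0.132.

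Ltbr, the lymphotoxin beta receptor that signals through the NF-kB-inducing kinase Map3k14, had 73.6, 80.9, 74.8 and 63.1 FPKM with PTH and 73.4, 72.3 and 73.3 FPKM with PBS. The PTH libraries lay on both sides of the narrow PBS range, and the log2 fold change was -0.0037 ± 0.09 (SE), with a limma adjusted p of 0.980. Its sign turned under 3 other scalings, to 0.05 after quantile normalization, 0.07 after median centring and 0.04 after rescaling. Tnfrsf1b, the TNF receptor without a death domain, had 14.4, 8.87, 12.2 and 13.2 FPKM with PTH and 12.4, 14.5 and 12.2 FPKM with PBS. PTH library 2 was the lowest of all libraries and the other PTH libraries lay inside the PBS range or, for PTH library 3, just under it, and the log2 fold change of -0.11 ± 0.16 (SE) did not pass (limma adjusted p of 0.649). Without PTH library 2 it was 0.02.

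Tnfrsf11b encodes osteoprotegerin, the secreted decoy for RANK ligand, and is known in bone as a gene that PTH lowers in osteoblasts. It had 1.05, 1.44, 1.25 and 2.06 FPKM with PTH and 2.31, 2.01 and 1.89 FPKM with PBS. PTH libraries 1, 2 and 3 lay below all PBS libraries and PTH library 4 lay among them. The log2 fold change of -0.34 ± 0.19 (SE) did not pass (limma adjusted p of 0.237). Its ligand gene Tnfsf11 was listed at 0 in all 7 libraries. Cd40, the costimulatory receptor of B cells and macrophages, was listed at 0 in all 7 as well, as was its ligand gene Cd40lg. A listed 0 can be a failed estimate, so it gives no fold change and does not show absence.

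**Figure D2:**
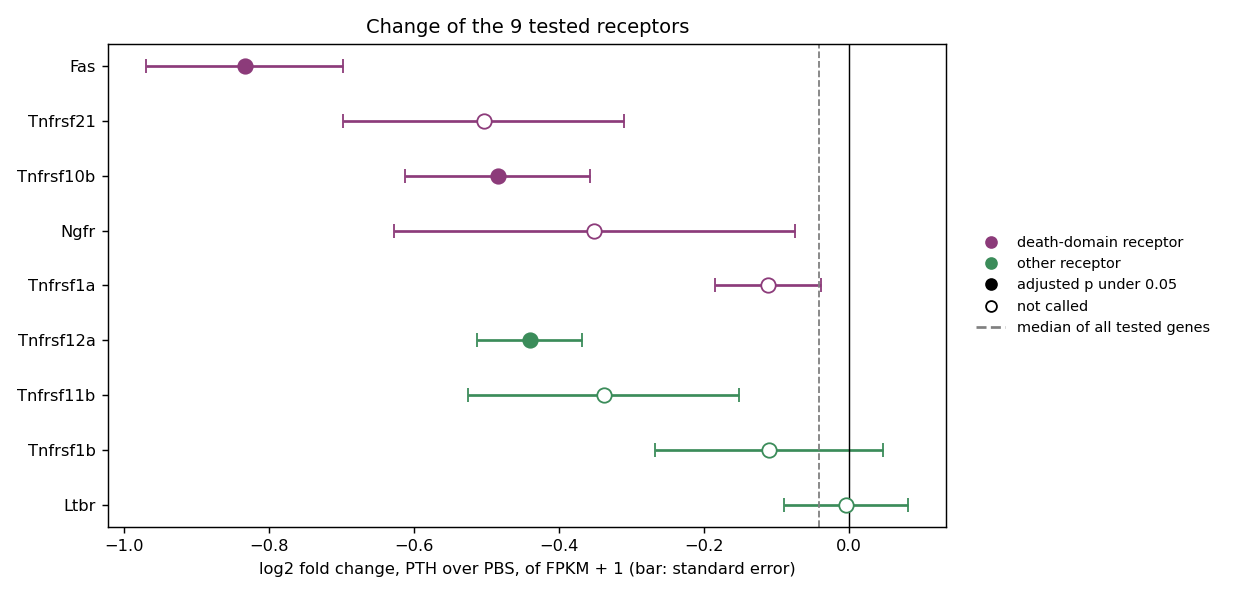
Log2 fold change, PTH over PBS, of FPKM + 1 for the 9 tested receptors, with bars for the standard error, death-domain receptors above the other receptors and filled points for an adjusted p under 0.05. All 9 points lie at or below 0, from -0.83 for Fas to -0.0037 for Ltbr, whose sign changes under other scalings, and the filled points are Fas, Tnfrsf10b and Tnfrsf12a.

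Death-domain receptors and other receptors were then set side by side. Of 5 death-domain receptors 2 were called lower, and of 4 other receptors tested 1 was, against the 7.96% of all genes. The median log2 fold change was -0.48 over the death-domain receptors and -0.22 over the others. The ranges overlapped, from -0.83 to -0.11 in the death-domain receptors and from -0.44 to -0.0037 in the others, and the difference between the classes was not tested. Measured from the PBS mean on the log2 scale, the death-domain receptors had medians of -0.36, -0.30, -0.67 and -0.71 in PTH libraries 1 to 4, and that of the others was -0.21, -0.32, -0.27 and -0.10. Both classes lay below 0 in every PTH library, but PTH library 2, which had the smallest difference among the death-domain receptors, had the largest among the others.

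The members did not follow 1 pattern across the PTH libraries. Fas was furthest below the PBS mean in PTH library 2, at -1.03 on the log2 scale, and closest to it in PTH library 1, at -0.69. Tnfrsf10b also had its lowest value in PTH library 2, at -0.73, whereas Tnfrsf12a had its smallest difference there, at -0.31. Tnfrsf21 and Ngfr stood lowest in PTH library 4, at -0.76 and -0.71. The highest value of any member was that of Ngfr in PTH library 1, at 0.28, and that library also had the smallest mitochondrial share.

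**Figure D3:**
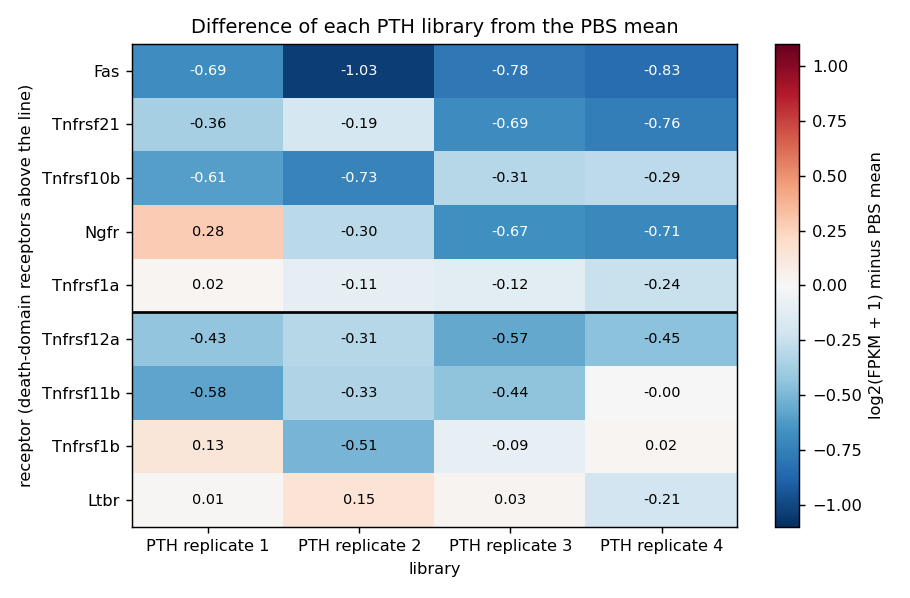
Difference of log2(FPKM + 1) in each PTH library (columns) from the mean of the 3 PBS libraries for the 9 tested receptors (rows), coloured blue below and red above 0. Fas, Tnfrsf10b and Tnfrsf12a are below 0 in all 4 columns, with Fas between -1.03 and -0.69, while Ltbr, Tnfrsf1b, Tnfrsf1a and Ngfr have cells on both sides.

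FPKM are scaled for transcript length but not for GC content or for how well a gene's reads map to the reference used. The order of levels between receptors is therefore approximate. With PTH the order was Tnfrsf1a at 89.8 FPKM, Ltbr at 73.1, Tnfrsf12a at 72.2, Tnfrsf10b at 12.8, Tnfrsf1b at 12.2, Fas at 3.01, Tnfrsf21 at 2.39, Tnfrsf11b at 1.45 and Ngfr at 0.826 FPKM. The ranges of neighbours overlapped for Ltbr and Tnfrsf12a, for Tnfrsf10b and Tnfrsf1b, and for each neighbouring pair from Fas down to Ngfr. With PBS the order was Tnfrsf12a at 98.2 FPKM, Tnfrsf1a at 96.8, Ltbr at 73.0, Tnfrsf10b at 18.2, Tnfrsf1b at 13.1, Fas at 6.13, Tnfrsf21 at 3.78, Tnfrsf11b at 2.07 and Ngfr at 1.25 FPKM, and only the ranges of Tnfrsf12a and Tnfrsf1a overlapped. Tnfrsf12a thus stood at rank 3 in the PTH libraries and at rank 1 in the PBS libraries.

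The 3 receptors with the highest FPKM made up most of the family's sum in both groups. Tnfrsf1a, Tnfrsf12a and Ltbr together took 87.8 ± 1.71% of the family's summed FPKM with PTH (SD, n = 4) and 85.8 ± 1.12% with PBS (SD, n = 3). The family's sum was 279, 277, 263 and 252 FPKM with PTH and 316, 313 and 309 FPKM with PBS, so the groups did not overlap. The summed FPKM of all genes did not overlap between the groups either. Tnfrsf12a, at 72.2 FPKM with PTH and 98.2 FPKM with PBS, held the largest part of the family's difference. The death-domain receptors took 40.6 ± 1.596% of the family's sum with PTH and 40.4 ± 0.8289% with PBS, a difference smaller than the spread between libraries in either group. Tnfrsf1a alone averaged 89.8 of their 109 FPKM with PTH and 96.8 of their 126 FPKM with PBS. The share therefore says little about the death-domain receptors at lower levels.

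Ratios within a library do not depend on the factor by which that library was scaled, but they can still carry an effect of GC content. The human counterparts of Tnfrsf1a and Fas have 57.5 and 39.1% GC, and those of Tnfrsf12a and Ltbr 61.7 and 62.3%. After a GC correction, described below, the log2 fold changes of Fas and Tnfrsf1a were -0.59 and -0.19, against -0.83 and -0.11 before it. Tnfrsf1a stood at 28.8, 36.1, 28.5 and 27.4 times the FPKM of Fas in the PTH libraries and at 17.5, 14.3 and 15.9 times in the PBS libraries. Tnfrsf12a stood at 0.983, 0.974, 0.882 and 1.13 times the FPKM of Ltbr with PTH and at 1.37, 1.31 and 1.35 times with PBS. Both ratios were separated between the groups, and the pairs were chosen after their values were seen, so no test is given. The ratio of Tnfrsf1a to Tnfrsf1b, the 2 TNF receptors, lay between 6.19 and 10.1 with PTH and between 6.66 and 8.001 with PBS, with overlapping ranges.

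The authors' deposited table gives an FDR under 0.05 to 4 members, all lower with PTH, against 15.4% of the tested genes called lower there, and to none that is higher, against 7.87%. In the authors' deposited table the log2 fold change was -1.03 for Fas (FDR of 6.51e-04), -0.44 for Tnfrsf12a (0.00115), -0.66 for Tnfrsf21 (0.00983) and -0.50 for Tnfrsf10b (0.0286). Tnfrsf21 is the member on which that table and limma differ. Ngfr and Tnfrsf11b have a p-value of 1 in the authors' deposited table despite log2 fold changes of -0.60 and -0.51, as do 925 of the 10667 genes tested here.

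Ligands of the family were mostly at or near 0. Of 21 genes for TNF superfamily ligands and neurotrophins 7 reached a mean of 1 FPKM and were tested, and 7 were listed at 0 in all libraries. Faslg, the ligand of Fas, lay between 0 and 0.214 FPKM with PTH and between 0 and 0.756 FPKM with PBS, and Tnfsf10, which encodes TRAIL, between 0 and 0.204 FPKM with PTH and between 0.331 and 0.389 FPKM with PBS. Tnf was listed at 0 in all PTH libraries and at 0 to 0.204 FPKM in the PBS libraries. Tnfsf12, which encodes the Tnfrsf12a ligand TWEAK, averaged 7.92 ± 1.73 FPKM with PTH and 7.01 ± 1.89 FPKM with PBS and did not pass (limma, unadjusted p of 0.474).

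Of the 7 tested ligand genes 2 fell, against 7.96% of all tested genes, and none rose, against 3.45%. The larger fall was that of Tnfsf18, whose product binds the costimulatory receptor encoded by Tnfrsf18. It had 0.691, 0.885, 1.63 and 1.57 FPKM with PTH and 6.04, 6.73 and 4.996 FPKM with PBS. The groups were far apart, at a log2 fold change of -1.68 ± 0.21 (SE) and a limma adjusted p of 0.00780, while Tnfrsf18 itself was listed at 0 in every library. The list's median log2 fold change was -0.14, against -0.04 over all tested genes. Of 7 genes for partners of Ngfr 3 were tested and none was called, against 11.4% of all tested genes called in either direction. Their median log2 fold change was 0.02, against -0.04 over all tested genes. Maged1, an Ngfr-binding adaptor, alone reached an unadjusted p under 0.05 in limma, higher with PTH. The share of all genes higher at that p was not counted. Maged1 averaged 133 ± 10.98 FPKM with PTH and 115 ± 3.01 FPKM with PBS (limma adjusted p of 0.102).

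Among 16 further genes of the receptor superfamily 7 were listed at 0 in all libraries and 4 were tested. Limma called none of the 4, against 11.4% of all tested genes called in either direction. An unadjusted p under 0.05 was reached by 1 of them, lower with PTH, against 21.7% of all tested genes lower at that p. Their median log2 fold change was -0.33, against -0.04 over all tested genes. Tnfrsf26 came closest, at 7.65 ± 0.624 FPKM with PTH and 9.69 ± 1.14 FPKM with PBS, with a limma adjusted p of 0.111. For Tnfrsf26 no human counterpart transcript was found by symbol, and the labels, identifiers and notes differ on the species. Tnfrsf9, an activation-induced receptor of lymphocytes, averaged 5.86 ± 1.34 FPKM with PTH and 7.62 ± 0.424 FPKM with PBS (limma adjusted p of 0.186).

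Downstream of the death domains 1 of 12 tested genes fell, a share near the 7.96% of all tested genes, and none rose, against 3.45%, with a list median of -0.06 beside -0.04 over all tested genes. The gene that fell was Bid, the caspase-8 substrate that links death receptors to mitochondria, at 19.4 ± 1.43 FPKM with PTH and 29.1 ± 1.68 FPKM with PBS, at a log2 difference of -0.57 ± 0.08 (SE) and a limma adjusted p of 0.0149. The adaptor Fadd averaged 8.11 FPKM with PTH and 7.81 FPKM with PBS, and Casp8 10.9 FPKM with PTH and 10.02 FPKM with PBS, with limma adjusted p of 0.884 and 0.704. Tradd had 43.1, 26.1, 32.1 and 29.3 FPKM with PTH and 24.6, 24.7 and 22.1 FPKM with PBS. All PTH values of Tradd lay above the PBS values, with PTH library 1 well above the rest, and it did not pass (log2 fold change of 0.42 ± 0.15 (SE), limma adjusted p of 0.104). Cflar, an inhibitor of caspase-8 activation, averaged 14.4 FPKM with PTH and 18.6 FPKM with PBS (limma adjusted p of 0.110).

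Of 21 TRAF, cIAP and ubiquitin genes, all tested, 4 fell, against 7.96% of all tested genes, and 1 rose, near the 3.45% of all tested genes. The list median was -0.09, against -0.04 over all tested genes. Tank, a TRAF-binding regulator, averaged 7.54 ± 1.32 FPKM with PTH and 14.2 ± 0.785 FPKM with PBS, with a limma adjusted p of 0.0187. Tab1, Tab2 and Tab3 encode partners of the kinase encoded by Map3k7, and they moved in different directions. Tab1 rose to 23.3 ± 1.64 FPKM in the PTH libraries, against 14.0 ± 2.32 FPKM in the PBS libraries, whereas Tab2 fell to 31.8 ± 5.95 FPKM with PTH, against 45.2 ± 1.80 FPKM with PBS, and Tab3 to 3.03 ± 1.13 FPKM with PTH, against 6.81 ± 0.844 FPKM with PBS. Their limma adjusted p were 0.0191, 0.0440 and 0.0342. Birc3, a cIAP ubiquitin ligase that binds TRAF2, fell to 5.78 ± 0.538 FPKM with PTH, against 8.30 ± 0.535 FPKM with PBS (limma adjusted p of 0.0409). The human counterparts of the 4 genes that fell have 34.8 to 39.9% GC and lie in the lowest GC quintile of tested genes. That of Tab1, at 60.4% GC, lies in the highest. In the lowest quintile 301 of 1887 genes were called lower, and in the highest 141 of 1887 were called higher. A GC correction, described below, was also run, but its values for these genes are not reported here. Beyond it, the part of GC content in these directions was not tested.

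Of 15 NF-kB subunit and feedback genes 7 fell, against 7.96% of all tested genes, and none rose, against 3.45%, with a median of -0.52 beside -0.04 over all tested genes. Tnip3, an inhibitor of NF-kB signalling, had a log2 fold change of -1.51 ± 0.17 (SE), and the adhesion molecule gene Icam1 one of -0.70 ± 0.09 (SE), with limma adjusted p of 0.00516 and 0.00939. Tnfaip3, a deubiquitinase that restrains TNF receptor signalling, averaged 14.1 ± 0.637 FPKM with PTH and 26.3 ± 0.927 FPKM with PBS (limma adjusted p of 0.00200), and Nfkbia, the inhibitor that holds NF-kB in the cytoplasm, 91.1 ± 3.45 FPKM with PTH and 136 ± 10.1 FPKM with PBS (limma adjusted p of 0.00756). Vcam1, Bcl3 and Nfkb1, the others that fell, did so by 1.40, 0.72 and 0.52 on the log2 scale. Of 4 tested genes for receptor shedding 1 fell, against 7.96% of all tested genes, and none rose, against 3.45%, with a list median of -0.24 beside -0.04 over all tested genes. It was Rhbdf2, a partner of the TNF-releasing protease ADAM17, at 19.0 ± 0.815 FPKM with PTH and 24.4 ± 0.658 FPKM with PBS, with a limma adjusted p of 0.0319. Adam17 itself averaged 19.6 FPKM with PTH and 24.7 FPKM with PBS, without overlap, and had a limma adjusted p of 0.0658. Over the 7 lists 15 of 66 tested genes fell and 1 rose, against 7.96% and 3.45% of all tested genes. Leaving out PBS library 1, 2 or 3 kept 1, 3 and 9 of these 16 calls, and leaving out PTH library 3 or 4 kept 5 and 10. A GC correction, described below, kept 14 of the 16.

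**Figure D4:**
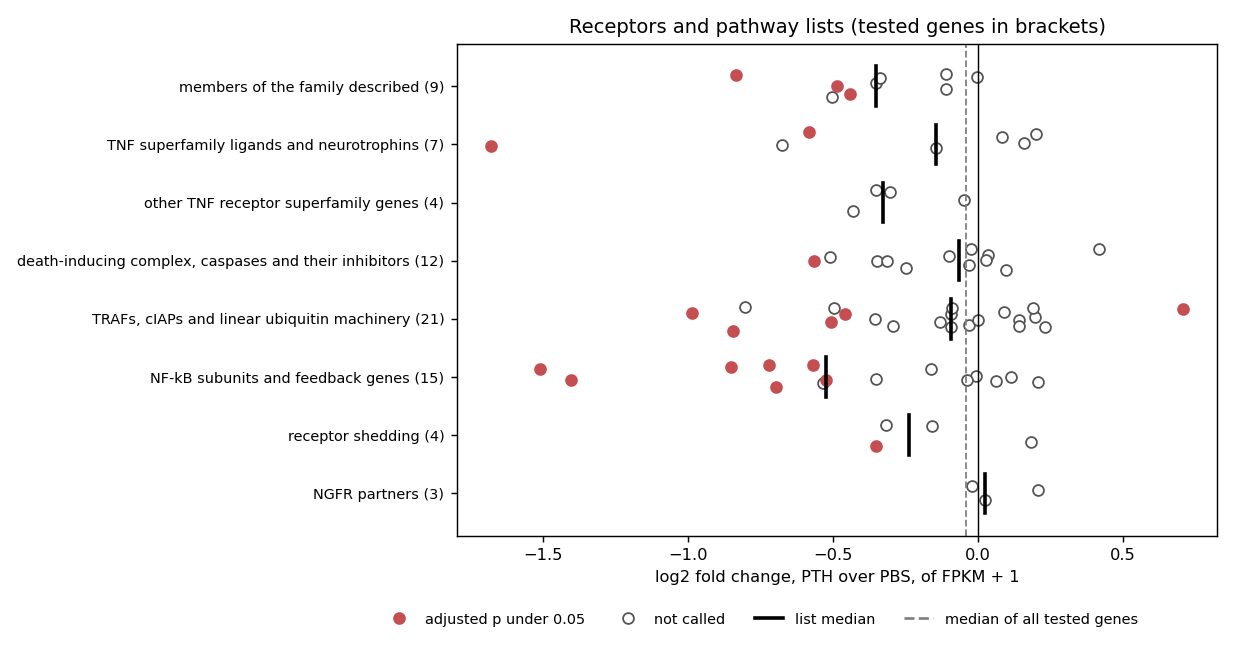
Log2 fold change, PTH over PBS, of FPKM + 1 for the 9 tested receptors and for the tested genes of 7 pathway lists, with filled points for an adjusted p under 0.05, a bar for each list's median and a dashed line for the median of all tested genes at -0.04. The NF-kB list has its median at -0.52 and the receptors theirs at -0.35, while the caspase and TRAF lists have medians of -0.06 and -0.09.

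The genes whose pattern came closest to that of Fas, the member with the smallest p, were Cyr61, Btg2, Rgs2, Tnfaip3 and Nfkbiz. Closeness was the root mean square difference over the 7 libraries of log2(FPKM + 1) minus the PBS mean, and it lay between 0.0961 and 0.118 for these 5. They were chosen for this likeness, so their falls of 1.77 to 1.95 times with PTH, beside 2.04 times for Fas, are a description and carry no test. The matricellular gene Cyr61 had 64.9, 48.4, 52.8 and 49.4 FPKM with PTH and 97.2, 102 and 86.3 FPKM with PBS. PTH library 1 was highest and PTH library 2 lowest among its PTH libraries, an order that the choice by likeness to Fas favours.

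Log2 fold changes of all genes moved with GC content, taken from the human counterpart transcript because no rat sequence was used here. Among 1887 genes in the lowest GC quintile the median log2 fold change was -0.26, and among 1887 in the highest it was 0.14. The counterpart of Fas has 39.1% GC and lies in the lowest quintile, and its log2 fold change of -0.83 stood below that quintile's median. The counterparts of Tnfrsf10b and Tnfrsf21 have 50.0 and 50.9% GC, in the middle quintile, whose median was -0.03. The counterpart of Tnfrsf12a has 61.7% GC and lies in the highest quintile, with Ngfr, Tnfrsf1b and Ltbr, and its log2 fold change of -0.44 was opposite in sign to that quintile's median. After a GC correction chosen after seeing the data, Tnfrsf12a remained called (log2 fold change of -0.58, limma adjusted p of 0.0141). Fas, at -0.59, and Tnfrsf10b, at -0.46, no longer passed, with limma adjusted p of 0.0513 and 0.0617, and Tnfrsf1a was called lower at -0.19 with an adjusted p of 0.0424.

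**Figure D5:**
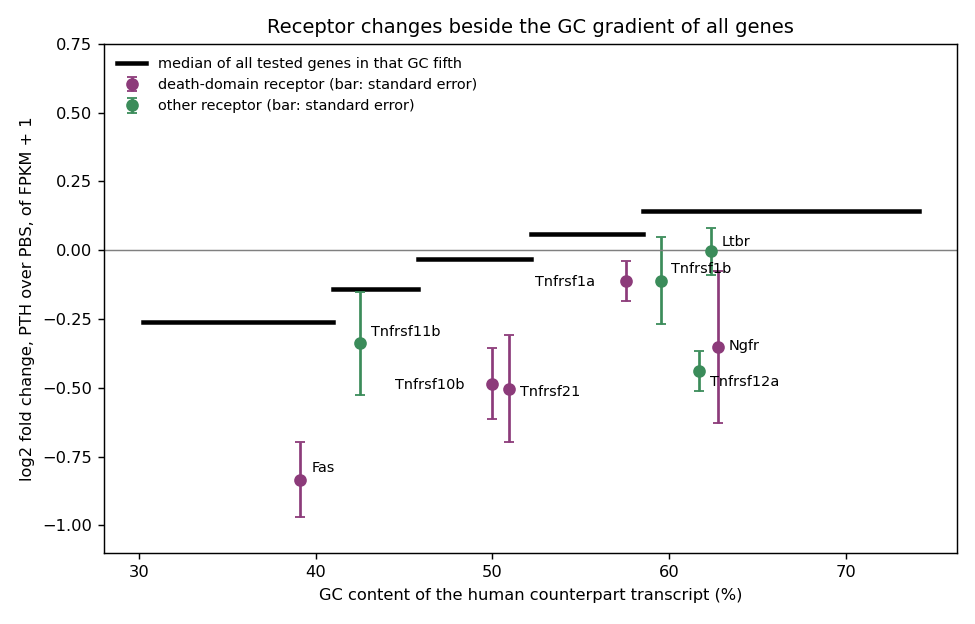
Log2 fold change, PTH over PBS, of FPKM + 1 against GC content (%), taken from each human counterpart transcript, for the 9 tested receptors (points, bars for the standard error), beside the median of all tested genes in each GC quintile (black lines). The quintile medians run between -0.26 and 0.14, and every receptor lies below the median of its own quintile.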

How the data were processed

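RNA-seq values were read for 4 PTH and 3 PBS libraries, grouped by their labels. The authors deposited FPKM per gene and library, split by direction into 2 tables, per the file headers. The submitters' processing notes name Bowtie 0.12.2 and the mouse build mm8. The quantifier is not given in the sources used here. Deposited by the authors, the log2 fold changes, p-values and FDR are used only where named; the log2 column in the table of higher genes was checked only as a score because the deposited values leave the usual range of a log2 scale.

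Rows were joined and the highest-mean row per symbol kept. limma 3.58.1 in R 4.3.3 was run with a variance trend on log2(FPKM + 1) for genes averaging 1 FPKM or more, without covariates, and was tested on simulated data. Alternatives changed the pseudocount, the filter, the scaling, the variance trend, sample weights (gene by gene), a replicate block and the libraries used, and a GC correction was added after seeing the data. Values after ± are SD for FPKM and SE for log2 fold changes, and folds are ratios of mean FPKM.

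Members and lists were chosen with earlier results of these data known. All 98 pathway entries and 133 of 135 entries in all matched a symbol. All members were named, with up to 4 called genes per list or the 1 with the smallest p, and a few list genes are not reported here. Faslg, Tnfsf10, Tnfsf11, Tnf, Tnfsf12, Tnfrsf18, Cd40lg, Tnfrsf9, Fadd, Casp8, Tradd, Cflar, Tab2, Vcam1, Bcl3, Nfkb1, Adam17, Map3k14, Map3k7 and the markers other than Vim, Cd14 and Krt19 fall outside that rule, having been picked with their values in view.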

Additional observations from a re-analysis of the deposited data

How the results depend on the processing

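Fas, Tnfrsf10b and Tnfrsf12a were lower under every setting in which they were tested (Fas was not tested at a mean of at least 5 FPKM). With all libraries 3 members, 16 pathway genes and 1217 genes in all were called. Leaving out a library in turn gave 0 to 3 members, 1 to 25 pathway genes and 28 to 2751 genes, with 28, 47 and 121 genes without PBS library 1, 2 and 3, and 2751, 80 and 235 without PTH library 2, 3 and 4. Without PTH library 2, 25 pathway genes were called. Sample quality weights gave 7 members, 32 pathway genes and 5196 genes. Without a filter on low values 762 genes were called, and 620 without a variance trend. A replicate block on numbers 1 to 3, which leaves out PTH library 4, gave 0 members (3 at an unadjusted p under 0.05), 0 pathway genes and 19 genes, of which 17 were lower. The deviations of libraries with the same number from their group means had correlations across genes of -0.00673, -1.28e-04 and -0.0385. With so few libraries per group, these values cannot decide whether the numbers pair them. The log2 fold change of Ltbr changed sign to 0.0481 with quantile normalization, 0.0674 with median centring, 0.0429 with rescaling and 0.0640 with the replicate block, and lay between -0.0538 and 0.0640 when a library was left out. That of Tnfrsf1b lay between -0.192 and 0.0222 when a library was left out. The cause of these changes was not tested. Fits that left out a library also had fewer libraries, and the calls over all genes fell in some of them and rose in others. Read depth is unknown, which limits the receptors near 1 FPKM most.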
